A study of Caenorhabditis elegans with 6 samples.

Results

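Kinesins are motor proteins that use ATP to walk along microtubules or to take microtubule ends apart. The members described here are 10 kinesin genes of Caenorhabditis elegans, listed by name, with no threshold on a measured value, when earlier results of these data were known. They are 7 genes that work in dividing cells (klp-7, klp-15, klp-16, klp-18, klp-19, bmk-1 and zen-4) and 3 that carry cargo in neurons, cilia and other cells (unc-104, unc-116 and klp-11). All 10 were found by WormBase identifier among 46940 features of the count table, and all 10 passed the filter on low counts. Another 16 kinesin names were looked up, and 9 of them had a row in that table, which gives 19 kinesins in all.

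In a dividing cell kinesins build the spindle, hold chromosomes at its centre and organise the midzone at which the cell is cut apart. The worm oocyte has no centrosomes, so its meiotic spindle depends on motors that sort microtubules around the chromosomes. In a neuron other kinesins move vesicles, mitochondria and ciliary components away from the cell body. The adult body of this animal is post-mitotic outside the germ line, and in hermaphrodites the germ line makes oocytes and embryos after the last larval stage.

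RNA came from whole animals of N2, the wild-type reference strain, with no treatment, grown on agar at 20 °C. There were 3 libraries labelled Day 10, called aged by the submitters, and 3 libraries of L4, the last larval stage, called young. All groups shared strain, genotype and culture conditions. The library names in the deposited counts all begin with Ev, a prefix not interpreted here. The sources used here do not give the starting point of the 10 days or say whether progeny were removed or prevented. The labels do not state separate cultures for the replicates, and p-values therefore cover library-to-library spread that may be technical. With no young adults in the series, growing up and growing old cannot be told apart.

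Libraries held 19576201 to 25616846 counts. Across tested genes, day 10 replicate 3 correlated with the other day 10 libraries at a Pearson r of 0.9858 and 0.9901 on log2 CPM, while those correlated at 0.9947 with each other. Genes are not independent replicates, so these values carry no test. Against the mean of replicates 1 and 2, replicate 3 differed by a median log2 of −0.54 for 10 intestine markers, −0.48 for 12 oocyte markers and 0.37 for 14 sperm markers. Markers of germ line, neurons, muscle, intestine, sperm and oocytes all had counts at both ages, and 2 of 15 embryo markers had 0 counts in L4. In bulk RNA from whole animals, fewer cells of a type and less RNA per cell cannot be told apart.

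All 7 division kinesins rose from L4 to day 10, by 2.36-fold to 4.84-fold. Over all 15956 genes tested, edgeR called 40.5% higher and 45.0% lower at day 10, and 85.4% in either direction, so a call by itself was common. The median log2 fold change of the 7 was 1.90, against −0.16 over all genes, a difference of 2.06. None of the 3 transport kinesins was called higher. The synaptic vesicle motor unc-104 fell 2.26-fold, and neither unc-116 nor klp-11 passed the test, which gave the transport kinesins a median of −0.06. These medians describe the genes chosen and carry no test.

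**Figure D1:**
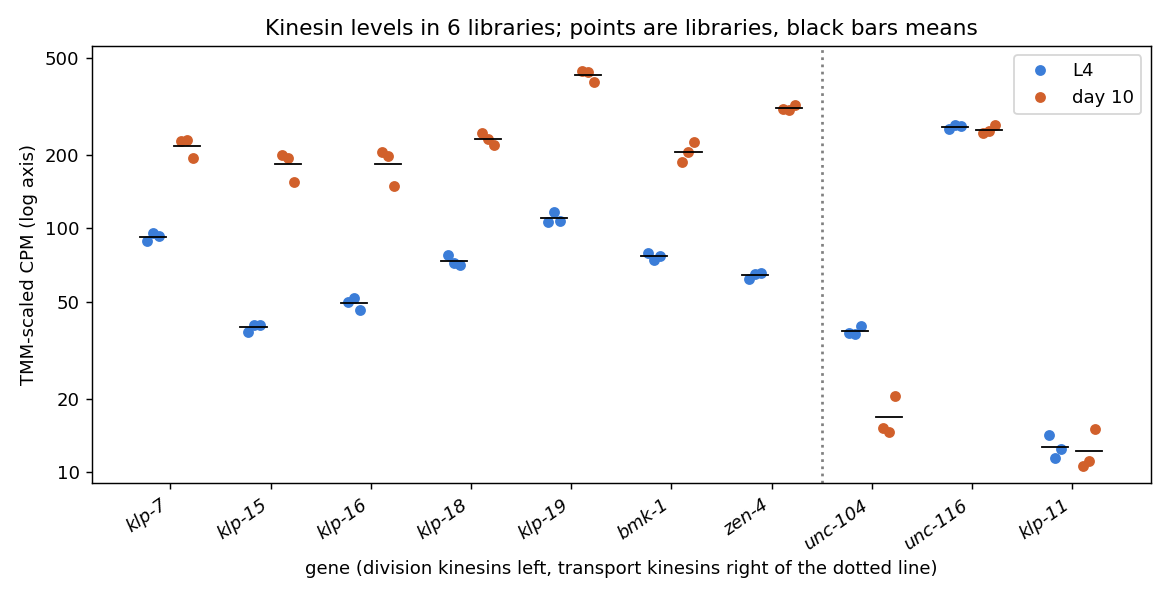
Level of each kinesin in TMM-scaled CPM on a log axis, with a point for each library, L4 in blue and day 10 in orange, and black bars for the means of 3 libraries. For the 7 genes left of the dotted line every day 10 library stands above every L4 library, unc-104 shows the opposite order, and the ages overlap for unc-116 and klp-11.

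Levels below are CPM, counts scaled to a common library total with TMM factors, unless FPKM is named. Day 10 and L4 libraries did not overlap for any of the 7 division kinesins, with day 10 higher each time. The same held for 41.3% of all tested genes, and 46.2% had all day 10 libraries lower. The number of reads behind a member ranged from 247 for klp-11 in an L4 library to 11078 for klp-19 in a day 10 library. The reads behind the other members and libraries lay between these numbers.

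Among the motors of the mitotic spindle and its midzone, zen-4 had the highest log2 fold change of the 10, although klp-15 lay within the standard errors. It encodes the kinesin-6 motor that, with the GTPase-activating protein CYK-4, forms centralspindlin, the complex that bundles the midzone and is needed to finish cytokinesis. Its level was 62.2, 65.2 and 65.8 CPM in the L4 libraries and 308, 306.5 and 322 CPM at day 10. The day 10 libraries lay close together and far above L4. The log2 fold change was 2.28 ± 0.03 (SE; edgeR's adjusted p = 3.07e-09), and 90.0% of tested genes had a lower log2 fold change. The gene lies on chromosome IV at 6118215 to 6121777 (WBcel235), and its last 5 bases overlap M03D4.4 on the other strand.

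The chromokinesin gene klp-19 encodes a motor that acts on chromosome arms and is needed for chromosomes to align. It stood at 106, 117 and 107 CPM in L4 and at 441, 438 and 399 CPM at day 10. The lowest day 10 library was far above the highest L4 library. Its log2 fold change was 1.95 ± 0.06 (adjusted p = 1.7e-08). On chromosome III (13302717 to 13307259) it shares 44 bases at one end with pgm-2 on the opposite strand. The sources used here do not say whether reads kept their strand.

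The kinesin-13 gene klp-7 encodes a motor that does not walk but takes microtubule ends apart at kinetochores and centrosomes. Its libraries held 88.8, 95.5 and 92.6 CPM in L4 and 228, 229.9 and 194 CPM at day 10. Replicate 3 was the lowest of the day 10 libraries and still above L4. The rise, 1.24 ± 0.08 on the log2 scale, was the smallest of the 7 (adjusted p = 5.29e-07). It lies on chromosome III at 10805925 to 10811001.

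The kinesin-5 gene bmk-1, whose relatives in other animals push spindle poles apart, is known in the worm as dispensable for a bipolar spindle. It stood at 79.2, 74.1 and 77.3 CPM in L4 and at 187.5, 206 and 225.5 CPM at day 10. Here replicate 3 was the highest day 10 library, the reverse of klp-7. The log2 fold change was 1.42 ± 0.08 (adjusted p = 2.02e-07). The gene lies on chromosome V at 14453302 to 14456984.

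Of the motors known from the oocyte's meiotic spindle, klp-18 encodes the kinesin-12 protein that gives this spindle its poles. The libraries held 78.0, 71.9 and 71.0 CPM in L4 and 245, 232 and 220.4 CPM at day 10. The day 10 levels were close to each other. The gene, on chromosome IV at 7040211 to 7043694, rose by 1.66 ± 0.06 on the log2 scale (adjusted p = 3.47e-08).

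The genes klp-15 and klp-16 encode a pair of near-identical minus-end-directed kinesin-14 proteins that assemble the oocyte spindle together. They are separate genes on chromosome I, at 5577070 to 5579194 on the minus strand and 9512452 to 9514637 on the plus strand. Reads that match both copies can be split or dropped by the authors' counting, whose settings the sources used here do not give, so each gene's own value is uncertain. The reads assigned to klp-15 amounted to 37.5, 40.1 and 40.0 CPM in L4 and to 200.2, 195 and 154.5 CPM at day 10. For klp-16 they were 49.7, 51.8 and 46.4 CPM in L4 and 205, 197 and 149 CPM at day 10. Both were lower in day 10 replicate 3 than in the other day 10 libraries, and all day 10 libraries stood above L4.

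The log2 fold changes were 2.22 ± 0.12 for klp-15 (edgeR's adjusted p = 1.05e-07) and 1.90 ± 0.15 for klp-16 (adjusted p = 1.42e-06). In FPKM, the ratio of klp-16 to klp-15 was 1.37, 1.34 and 1.20 in L4 and 1.06, 1.05 and 1.00 at day 10. All day 10 ratios were below all L4 ratios. This reached the smallest p that 3 against 3 libraries allow, an exact two-sided permutation p = 0.1, or 0.2 after adjustment over the 6 ratios tested, and the difference in the log2 ratio was −0.33 ± 0.06 (SE). Because the copies may share reads, the shift in the ratio is uncertain too.

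Of the transport motors, unc-104 encodes the kinesin-3 that carries synaptic vesicle precursors down axons. The gene is the founding member of that family, whose mammalian members include KIF1A. Its libraries held 37.05, 36.9 and 39.8 CPM in L4 and 15.2, 14.7 and 20.5 CPM at day 10. Every day 10 library was below every L4 library, and replicate 3 was the highest of the day 10 libraries. The gene fell by 1.18 ± 0.16 on the log2 scale (edgeR's adjusted p = 4.03e-05), with a log2 fold change of −1.32 when day 10 replicate 3 was left out. It spans 15639 bases of chromosome II, from 6994987 to 7010625, and the annotated genes inside it are all in its introns.

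The kinesin-1 heavy chain gene unc-116 encodes the general plus-end motor for mitochondria, vesicles and other cargo, and it also acts in oocytes and embryos. It stood at 256.5, 264.5 and 263 CPM in L4 and at 245, 251 and 266 CPM at day 10. The ages overlapped, with the highest and the lowest of the 6 libraries both at day 10. The log2 fold change of −0.04 ± 0.04 did not pass the test (adjusted p = 0.498). That value depended on the scaling. Upper-quartile factors gave −0.49, which passed (adjusted p = 4.01e-05), and DESeq2's size factors gave 0.12, which did not (adjusted p = 0.0517). The gene lies on chromosome III at 8351164 to 8355174.

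The kinesin-2 gene klp-11 encodes a motor subunit of heterotrimeric kinesin-II, which starts the transport of material into sensory cilia. The libraries held 14.2, 11.5 and 12.4 CPM in L4 and 10.6, 11.1 and 15.01 CPM at day 10. The ages overlapped, and day 10 replicate 3 was the highest of the 6 libraries. The log2 fold change of −0.06 ± 0.18 did not pass (adjusted p = 0.768), and it was −0.50 with upper-quartile factors (adjusted p = 0.0262). On chromosome IV (8756735 to 8762066) the gene shares 5262 bases of its span with F20C5.11 on the same strand. By its identifier, F20C5.11 had no row in the count table. Reads of klp-11 and F20C5.11 are therefore not separated in these counts, and those of klp-11 may include some of F20C5.11.

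In the authors' deposited table, all 7 division kinesins and unc-104 had an adjusted p under 0.05, and unc-116 and klp-11 had 0.424 and 0.714. The same threshold was met by 54.6% of features with an adjusted p in that table. For zen-4 the authors' deposited table gives means of 1366 scaled counts in L4 and 7418 at day 10, and for unc-104 it gives 804 and 398.

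**Figure D2:**
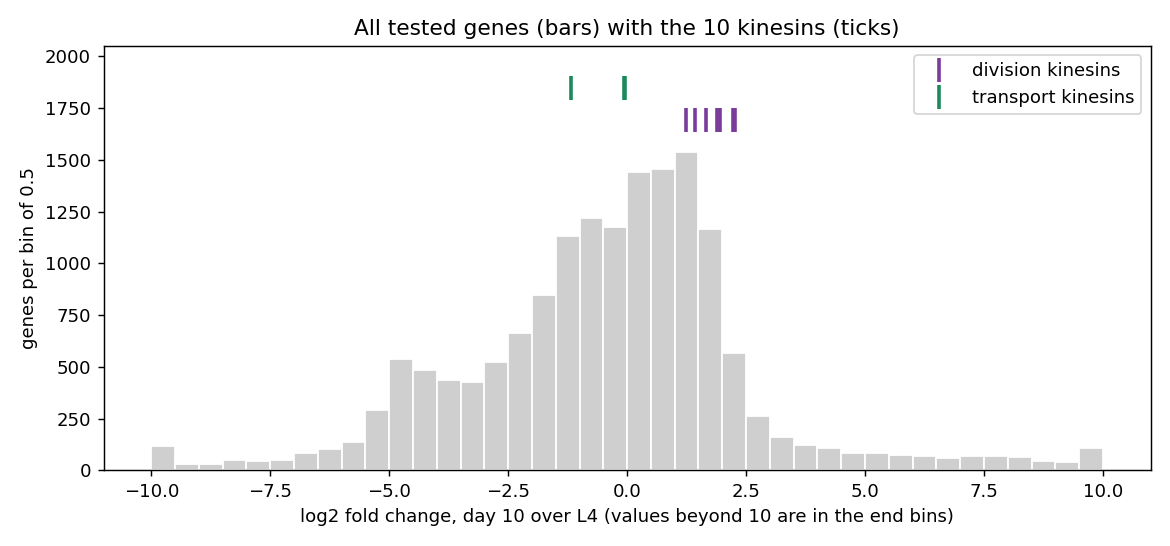
Number of tested genes in bins of 0.5 of the log2 fold change of day 10 over L4 (grey bars), with ticks for the 7 division kinesins (purple) and the 3 transport kinesins (green). The division kinesins lie between 1.24 and 2.28, in the bins from the tallest bar upward, and the transport kinesins between −1.18 and −0.04.

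The scale of every fold change moved with the scaling of the libraries. The median over all genes was −0.16 with TMM factors. Upper-quartile factors put it at −0.62, and DESeq2's size factors at 0.0004. Changing these factors moves all genes by nearly the same amount, so distances from that median had to agree between them. The distances are therefore a description and no check. Measured in this way, zen-4 stood 2.44 higher under TMM, DESeq2's and upper-quartile factors. Under each of them klp-7 stood 1.40 higher and unc-104 1.01 lower. The distance of unc-116 from the median was 0.12 with TMM factors and 0.13 with upper-quartile factors, and that of klp-11 was 0.11 under both.

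Day 10 replicate 3 divided the members. Against the mean of replicates 1 and 2, its log2 level was lower by 0.43 for klp-16, by 0.35 for klp-15 and by 0.24 for klp-7, with differences of −0.14 for klp-19 and −0.11 for klp-18. It was higher by 0.20 for bmk-1 and by 0.07 for zen-4. For unc-104 and klp-11 the difference was 0.45 each, and for unc-116 it was 0.10. Among the marker lists, medians were below 0 for intestine (−0.54), oocyte (−0.48), germ line (−0.16) and muscle (−0.01). They were above 0 for sperm (0.37), embryo (0.23) and neuron markers (0.13). The part of these lists in the members' spread was not tested. Without replicate 3 the log2 fold changes of the division kinesins ran from 1.33 for klp-7 to 2.35 for klp-15, and all 7 still passed.

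Levels of different genes were compared in FPKM, which divides counts by gene length. In L4, unc-116 was the most abundant member at 84.2 ± 0.748 FPKM (SD, n = 3), followed by klp-7 at 38.1 ± 0.868 and klp-19 at 30.4 ± 1.15. The values of bmk-1 (25.4 ± 1.21), klp-16 (24.1 ± 1.15), klp-18 (22.9 ± 1.43) and zen-4 (22.3 ± 0.541 FPKM) came next, each overlapping its neighbour in the order. Below them came klp-15 at 18.5 ± 0.528 FPKM, klp-11 at 8.82 ± 1.08 and unc-104 at 6.98 ± 0.353, with no overlap between neighbours.

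At day 10 the order had changed. The top was held by klp-19 at 118.8 ± 2.09 FPKM and zen-4 at 109 ± 7.05, whose libraries overlapped. Next came klp-7 at 90.5 ± 5.14, klp-16 at 90.5 ± 11.9, klp-15 at 87.0 ± 8.85 and unc-116 at 82.9 ± 6.64 FPKM, an overlapping run, followed by klp-18 at 72.9 ± 1.98 and bmk-1 at 68.9 ± 8.80, which overlapped each other. Far below were klp-11 at 8.60 ± 2.06 and unc-104 at 3.14 ± 0.738 FPKM. The length behind the deposited FPKM differed from the exon length of the Ensembl annotation for some genes, most among the 10 for klp-11, with 1434 against 2419 bases. On exon length, an alternative chosen after the data were seen, klp-11 stood at 5.23 ± 0.643 in L4, below unc-104 at 6.84 ± 0.346. At day 10 klp-15 (96.5 ± 9.82) then came next to klp-19, before zen-4 (96.0 ± 6.21), so the order between genes depends on the length used.

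Summed over the 19 kinesins, FPKM came to 416, 417 and 421 in the L4 libraries and 827, 823 and 824 at day 10, with no overlap. Division kinesins made up 43.8, 43.7 and 42.9% of that sum in L4 and 78.2, 78.2 and 75.55% at day 10. The share of the transport kinesins was 24.2, 23.6 and 24.0% in L4 and 10.65, 10.99 and 12.8% at day 10. These shares are taken within a library and do not depend on the scaling between libraries, but they depend on the lengths. Exon lengths, about 2.04 times the authors' length for klp-3 and 1.90 times for klp-12, put the division kinesins at 49.3 to 50.2% in L4 and 79.55 to 82.2% at day 10, and the transport kinesins at 25.8 to 26.3% and 10.6 to 12.8%. The share of unc-116 was 20.2 ± 0.0625% in L4 and 10.1 ± 0.814% at day 10 (SD, n = 3), while its CPM did not pass the test.

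**Figure D3:**
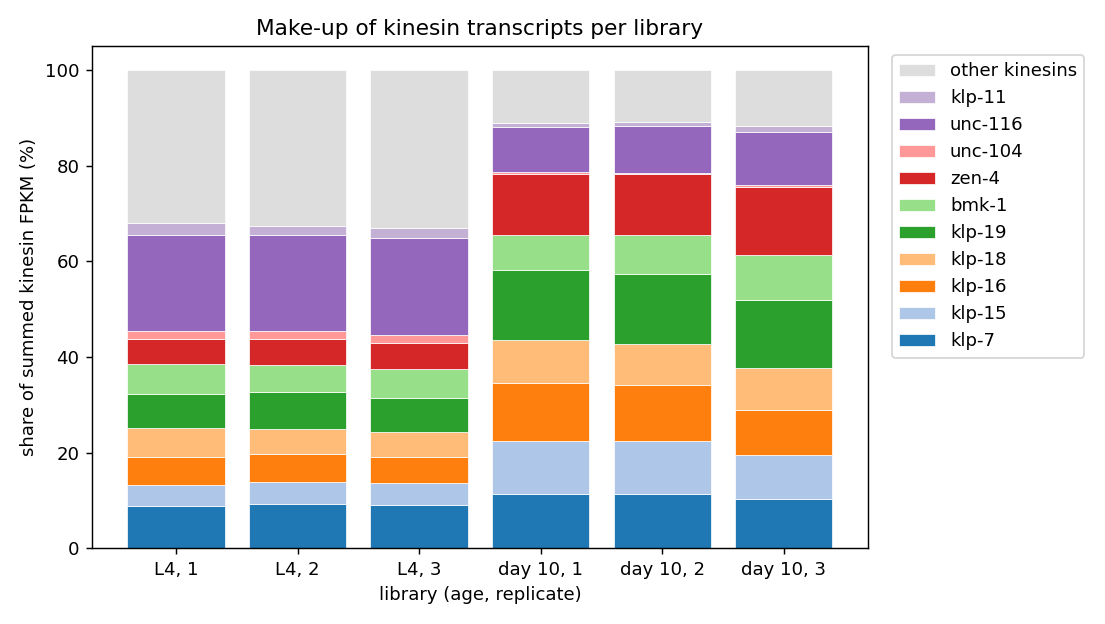
Share of the summed FPKM of 19 kinesins in each of 6 libraries, in percent, with a colour for each of the 10 kinesins and grey for the other 9. The 7 division kinesins, the lowest blocks, fill 42.9 to 43.8% of the L4 bars and 75.55 to 78.2% of the day 10 bars.

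Of the other 9 kinesins, edgeR called 1 higher and 3 lower at day 10, where 40.5% of all genes were called higher and 45.0% lower. The count is too small to set against those shares, and upper-quartile factors gave 0 higher and 5 lower, while DESeq2's size factors gave 3 higher. The kinesin-14 gene klp-17 fell from 14.8 ± 0.288 to 0.865 ± 0.427 CPM, with only 14 to 33 reads left in a day 10 library, and klp-3, of the same family as klp-15 and klp-16, fell from 32.2 ± 2.44 to 5.08 ± 0.734 CPM. The kinesin-14 family therefore held genes that rose and genes that fell. All 14 sperm marker genes also fell (45.0% of all genes did), from a summed 1103 ± 11.7 to 50.3 ± 11.6 CPM, and their part in these falls was not tested.

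The kinesin-3 gene klp-4 fell from 74.6 ± 5.18 to 34.2 ± 4.82 CPM, a log2 fold change of −1.12 ± 0.13 beside −1.18 for unc-104 of the same family. Another kinesin-3 gene, klp-6, known from ciliated sensory neurons, was called higher (adjusted p = 0.0218) at 8 to 9 reads in an L4 library and 17 to 38 at day 10. That call was lost under 6 of 16 alternatives, among them leaving out day 10 replicate 2, with adjusted p over all of them from 0.0115 to 0.108. The kinesin-4 gene klp-12 stood at 172 ± 9.10 CPM in L4 and 161 ± 4.05 at day 10 and did not pass (adjusted p = 0.16, and 1.33e-05 with upper-quartile factors, where it was lower).

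The genes klp-20, osm-3, vab-8 and klp-13 did not pass either. The log2 fold change of klp-20 was 0.22 ± 0.10 (edgeR's adjusted p = 0.151). Its result stayed the same under 14 of 17 alternatives, with adjusted p over all of them from 0.0158 to 0.45. For vab-8, a kinesin-like protein of cell and axon migration, the log2 fold change was 0.30 ± 0.13 (adjusted p = 0.0514). It passed with DESeq2's size factors (0.47) and had the opposite sign with upper-quartile factors (−0.15). The homodimeric ciliary motor osm-3, which works after kinesin-II in sensory cilia, held 5.86 ± 0.696 CPM in L4 and 4.21 ± 0.992 at day 10 (adjusted p = 0.064). Without day 10 replicate 3 its adjusted p was 0.00498.

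**Figure D4:**
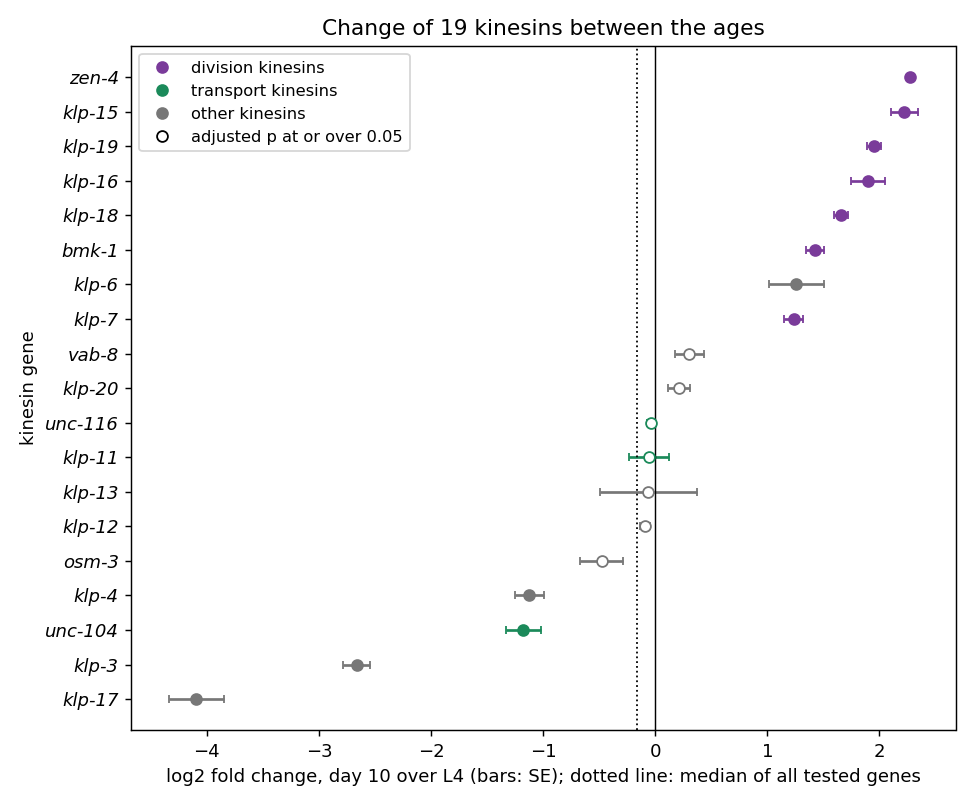
Log2 fold change of day 10 over L4 for 19 kinesins, with bars for the standard error, a solid line at no change and a dotted line at the median of all tested genes. Filled points have an adjusted p under 0.05; the 7 division kinesins (purple) lie from 1.24 to 2.28 and klp-17 lies lowest at −4.09.

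Most genes that work with the division kinesins rose as well. Of 28 listed partners, 27 rose and none fell, with a median log2 fold change of 1.61, where 40.5% of all genes were called higher. Upper-quartile factors left 25 higher and 2 lower. The most abundant per length were the tubulins tbb-2 and tba-2, which form the microtubule itself, and they rose by 0.50 ± 0.05 and 0.62 ± 0.05 on the log2 scale. With upper-quartile factors tbb-2 was at 0.05 and did not pass (adjusted p = 0.397). The small GTPase rho-1, which drives the contractile ring, was the partner that did not pass (0.11 ± 0.03, adjusted p = 0.0717), but its call depended on the scaling. It was lower with upper-quartile factors (−0.34, adjusted p = 0.000191) and higher with DESeq2's size factors (0.27, adjusted p = 0.000847).

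In some pairs of partners the fold changes differed, although with 3 libraries an age no ratio could reach an adjusted p of 0.05. The centralspindlin subunit cyk-4 rose by 1.62 ± 0.06 on the log2 scale, less than zen-4. The ratio of zen-4 to cyk-4 in FPKM was 0.479, 0.441 and 0.452 in L4 and 0.717, 0.682 and 0.757 at day 10. All day 10 ratios were above all L4 ratios, a log2 difference of 0.65 ± 0.06 with the smallest exact permutation p that 6 libraries allow, 0.1 (0.2 adjusted over 6 ratios).

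The gene mesp-1, whose product works with KLP-18 at the poles of the oocyte spindle, rose by 3.80 ± 0.16 on the log2 scale, beside 1.66 for klp-18. The ratio of klp-18 to mesp-1 in FPKM was 0.670, 0.517 and 0.568 in L4 and 0.124, 0.123 and 0.152 at day 10. The ages did not overlap, with a log2 difference of −2.13 ± 0.15 (exact permutation p = 0.1, the smallest possible, and 0.2 adjusted). In L4 transcripts of the 2 genes were within about a factor of 2 of each other per length, and at day 10 mesp-1 reached 605, 580 and 474.5 FPKM.

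**Figure D5:**
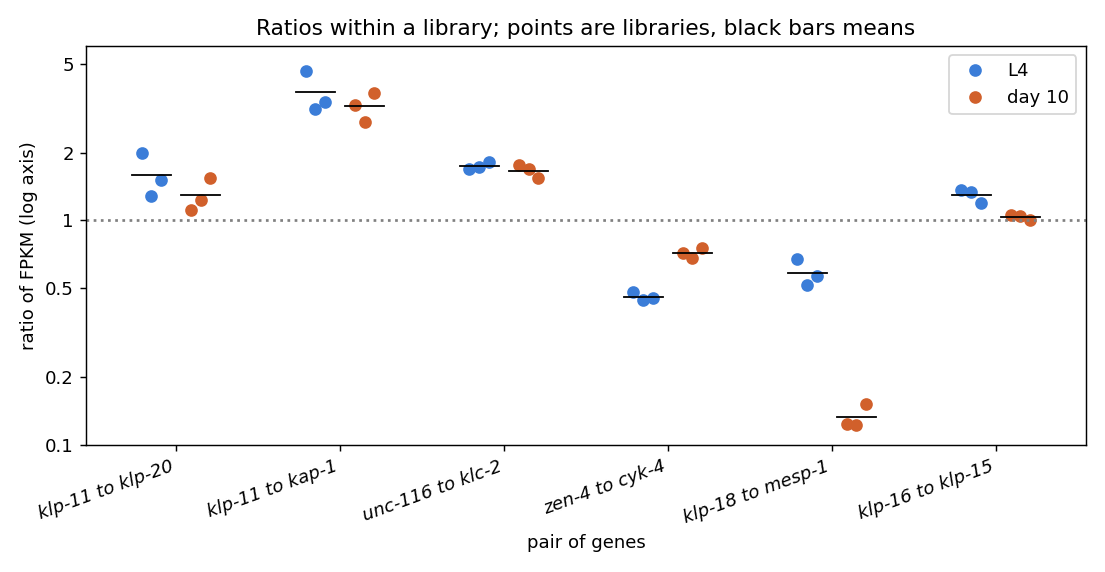
Ratio of FPKM between 2 genes within a library, on a log axis, for 6 pairs, with a point for each L4 (blue) and day 10 (orange) library, black bars for means and a dotted line at equal levels. The ages separate for zen-4 to cyk-4, klp-18 to mesp-1 and klp-16 to klp-15, and overlap for both klp-11 pairs and for unc-116 to klc-2.

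Among 20 listed transport partners edgeR called 10 higher and 6 lower, where 40.5% and 45.0% of all genes were, and the median log2 fold change was 0.24 against −0.16 over all genes. Upper-quartile factors left 5 higher and 9 lower. The small GTPase arl-8 and the BORC subunit sam-4, which act upstream of UNC-104 in releasing vesicle precursors and also serve lysosomes in many cells, rose by 1.09 ± 0.08 and 1.61 ± 0.06 on the log2 scale while unc-104 fell. The dynein regulator lis-1 and the JIP3 adaptor unc-16 rose by 0.60 ± 0.04 and 0.53 ± 0.06, and unc-16 no longer passed with upper-quartile factors (0.08, adjusted p = 0.25). The 6 that fell were mec-12 (−3.20) and mec-7 (−3.05), tubulins of touch neurons, the tau-like gene ptl-1 (−1.18), the ankyrin gene unc-44 (−0.96), unc-14 (−0.54) and the active zone gene syd-2 (−0.30). Other genes known from axons were among those that rose, with unc-76 at 1.51, unc-119 at 0.72 and unc-33 at 0.35. These 9 were picked for mention after their values were seen.

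Kinesin-1 works with light chains that bind its cargo. The gene klc-2, the light chain known from neurons, stood at 89.6, 89.9 and 85.3 CPM in L4 and at 81.8, 88.3 and 102 CPM at day 10, and the ages overlapped. Its log2 fold change of 0.04 did not pass (adjusted p = 0.678), but it passed as lower with upper-quartile factors (−0.41, adjusted p = 0.00227) and as higher with DESeq2's size factors (0.20, adjusted p = 0.0369). The ratio of unc-116 to klc-2 in FPKM was 1.75 ± 0.0646 in L4 and 1.67 ± 0.113 at day 10, a log2 difference of −0.07 ± 0.06 (exact permutation p = 0.4). The other light chain, klc-1, rose from 37.9, 37.6 and 39.2 CPM to 153, 143 and 124 CPM, a log2 fold change of 1.87 ± 0.09 (edgeR's adjusted p = 7.37e-08). The adaptor kca-1, which with kinesin-1 moves the meiotic spindle to the oocyte cortex, rose from 15.3 ± 0.453 to 94.2 ± 10.1 CPM. The genes klc-1 and kca-1 were picked for mention after their values were seen.

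The ratios within kinesin-II did not differ beyond the spread between libraries. The ratio of klp-11 to klp-20, the other motor subunit, was 1.99, 1.28 and 1.52 in L4 and 1.11, 1.24 and 1.54 at day 10 in FPKM (log2 difference −0.29 ± 0.23, exact permutation p = 0.3). The ratio to kap-1, the non-motor subunit, was 3.73 ± 0.806 in L4 and 3.24 ± 0.485 at day 10 (log2 difference −0.19 ± 0.21, exact permutation p = 0.5). The level of these ratios, though not their difference between the ages, depends on the gene lengths used. Errors of this size leave moderate shifts in either direction undetectable. Of 18 tested genes listed for ciliary transport, the regulator daf-19 among them, 4 rose and 5 fell (2 and 8 with upper-quartile factors). The list is too small, and many of its counts too low, to set these numbers against the 40.5% and 45.0% of all genes. Of the list, 11 of 19 genes stood under 1 CPM at day 10. The most abundant per length was the ciliary regulator daf-19, which rose from 12.5 ± 1.02 to 30.9 ± 0.858 CPM. Of the next 3, all ciliary transport genes, osm-1 rose by 0.62 ± 0.15 on the log2 scale, and neither dyf-2 (0.18 ± 0.05) nor dyf-6 (−0.38 ± 0.11) passed.

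Marker lists of the tissues in which these kinesins are known to work were set beside them, to be read against the 40.5% of all genes called higher. All 12 oocyte markers rose, from a summed 607 ± 16.4 to 13120 ± 2537 CPM, with day 10 libraries at 15020, 14110 and 10240. The list includes mei-1, which also counts among the division kinesin partners. The eggshell genes cpg-2 and cbd-1, with the highest CPM of the list, rose by 4.48 and 4.70 on the log2 scale. Of 14 germ line markers, 12 rose and 1 fell, from a summed 2080 ± 12.9 to 4713 ± 409.7 CPM. The translational repressor gene gld-1 rose by 1.68 on the log2 scale, while the helicase gene glh-1 fell by 0.34, a call lost with DESeq2 (adjusted p = 0.0731). Of 11 tested embryo markers, 9 rose and 2 fell, and the summed level of the list was 40.4 ± 1.79 CPM in L4 and 215 ± 2.98 at day 10. The transcription factor genes pal-1 and elt-1, with the highest CPM of these, rose by 2.90 and 1.20. The mean of pal-1 was 15.8 CPM in L4 and 118 at day 10, so most of the summed rise came from this gene. Whether its transcripts came from embryos or from the germ line was not tested. The embryo markers that fell were hlh-1 (−1.95) and ceh-27 (−1.59), and end-1, med-1, med-2 and sdz-38 had too few counts to be tested.

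Of all genes, 45.0% were called lower, with a median log2 fold change of −0.16 over all genes tested. Of 15 neuron markers, 12 fell and 2 rose, with a median of −1.16, and the summed level was 674 ± 16.9 CPM in L4 and 493 ± 9.06 at day 10. The proprotein convertase gene egl-3 fell by 0.97 on the log2 scale, and the clathrin adaptor gene unc-11 rose by 0.56, a call lost with upper-quartile factors (adjusted p = 0.1). All 10 muscle markers fell, among them the myosin gene unc-54 by 5.37 and the actin gene act-4 by 3.22. Of 10 intestine markers 8 fell, among them the protease gene asp-1 by 2.24 and the actin gene act-5 by 2.92. Of the sperm markers, msp-36 had the highest CPM and fell by 5.41, and msp-31 fell by 5.72. Both belong to a family of near-identical genes, so that each gene's own value is uncertain. The part of any of these lists in the values of the kinesins was not tested.

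Genes whose pattern over the 6 libraries was closest to the mean of the 7 division kinesins were C39E9.12, hda-1, ect-2, rsa-2 and unc-59. Of these, ect-2 also stands on the list of division kinesin partners. The mean of the division kinesins blends log2 fold changes from 1.24 (klp-7) to 2.28 (zen-4). Closeness was the root mean square difference of log2 CPM after centring each gene, over 4218 genes with a symbol and at least 50 CPM on average. It was 0.0251 to 0.0303 for these 5, against a median of 0.592 over those genes. The gene hda-1, a histone deacetylase, stood at 76.5 ± 2.52 CPM in L4 and 270.6 ± 13.01 at day 10. For the mean of the 3 transport kinesins the closest were upb-1, ent-2, cas-1, T14G8.3 and mig-15, at 0.0396 to 0.0765 against a median of 0.791. Their log2 fold changes ran from −0.47 to −0.33. That mean blends unc-104 (−1.18) with unc-116 (−0.04) and klp-11 (−0.06), so these genes had the pattern of none of the 3.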

How the data were processed

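Gene-level RNA-seq of 3 day 10 and 3 L4 samples, grouped by the age in their titles, was analysed. The authors deposited raw read counts per gene; CASAVA 1.8, HISAT2 and HTSeq are named in the submitters' processing notes, while the genome build, the annotation and how reads were counted are not given in the sources used here. The deposited FPKM values are those counts per gene length and library total, as tested on the values. The authors' deposited comparison gives means of scaled counts, a signal, with p-values and adjusted p-values; its test was not stated.

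Symbols and WBcel235 coordinates came by identifier from Ensembl release 115 and its gene table; the authors' build may differ. Day 10 was tested against L4 on the counts with edgeR 4.0.16 (R 4.3.3; TMM, default filter, robust quasi-likelihood fit, Benjamini-Hochberg adjustment over 15956 genes, threshold 0.05). Standard errors come from log2(CPM + 0.5). Ratios of FPKM were compared by exact permutation. Alternatives, 17 in all, used other scaling, filters, DESeq2 1.42.0, limma 3.58.1 on log2(FPKM + 0.1) and log2(FPKM + 1), the replicate number, and each library left out. The fit was run on simulated counts in which most genes did not change. Most genes did in these data, so that run does not test the scaling.

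Members and lists were chosen with earlier results of these data known. All 10 members are described in full; of each partner list the 4 genes with the highest mean FPKM and the partners in the tested ratios were named, of marker lists the 2 with the highest CPM. The gene mei-1 is named because it stands on 2 lists. Further names are marked as picked later. Planned promoter and protein motif searches were not run.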

Additional observations from a re-analysis of the deposited data

How the results depend on the processing

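All 7 division kinesins stayed higher, and unc-104 lower, past the threshold under all 17 alternatives; with upper-quartile factors all 3 transport kinesins were lower. With those factors the median log2 fold change was 1.45 for the division and −0.50 for the transport kinesins. DESeq2 and its size factors gave a transport median of 0.11, and leave-one-out fits gave −0.21 to 0.0050, the lowest without day 10 replicate 3. Genes that did not pass changed sign in places. DESeq2's size factors in edgeR and DESeq2 itself gave 0.12 and 0.125 for unc-116, 0.11 and 0.11 for klp-11, 0.073 and 0.074 for klp-12, and 0.097 and 0.096 for klp-13. With upper-quartile factors klp-20 was at −0.23 and vab-8 at −0.15. Leaving out single libraries gave −0.0645 to 0.0050 for unc-116, −0.2069 to 0.0563 for klp-11 and −0.6162 to 0.3265 for klp-13. In edgeR, the other size factors moved all genes by nearly the same amount, as the median over all genes did. The cause of the changes without single libraries was not tested.

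With the replicate number as a block, 13397 genes were called against 13634, and no count of kinesins moved. Same-numbered libraries deviated together at a Pearson r of 0.019 to 0.0204, so the numbers were not taken as pairs, although each library correlated best with its own number. Counts of klp-6, klp-13, klp-17 and kap-1 were low, which limits what their values show.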
